A study of Mus musculus with 8 samples.

Results

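Mpo, Elane, Prtn3, Ctsg, Ms4a3 and Fcnb are switched on early in granulocyte formation, in the promyelocyte. They were examined here in RNA of the mouse annulus fibrosus, the fibrocartilage ring of the intervertebral disc. The genes, and the lists of other genes set beside them, were taken by name with earlier results of these data known. All 6 were read, each from 1 single-gene probe set, among the 22180 genes read in this way, and all 6 lay above the filter on low levels. The study compared Black 6 mice of 2 genotypes, WT and ENT1-null, at 2 ages, 2 months and 6 months, with 2 Affymetrix arrays in each of the 4 groups. ENT1-null mice lack exons 2 to 4 of Slc29a1, the gene of equilibrative nucleoside transporter 1, which carries adenosine across the cell membrane. The labels describe no tissue-specific driver for the deletion, no drug treatment and no sex. Each array held a pool of 5 to 6 thoracic annulus tissues, and the labels leave unsaid if different mice went into the 2 pools of a group. P-values therefore measure the spread between pools, which may be technical.

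A granulocyte precursor at the promyelocyte stage fills its primary, or azurophil, granules with enzymes that later kill microbes inside the neutrophil. It makes the mRNAs of these enzymes for a short time and shuts them off as it becomes a myelocyte, which then makes the secondary granules. Mature neutrophils carry the stored proteins but little of the mRNA, and the precursors live in the bone marrow. Of the 6 genes, 4 encode granule enzymes. Mpo encodes myeloperoxidase, the haem enzyme that makes hypochlorous acid. Elane, Prtn3 and Ctsg encode neutrophil elastase, proteinase 3 and cathepsin G, related serine proteases. Ms4a3 encodes a membrane protein that marks granulocyte and monocyte progenitors, and Fcnb encodes ficolin B, a lectin that starts complement activation.

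On all 8 arrays the deposited log2 values had medians between 6.77 and 6.82. Over the 15526 genes tested, Pearson r between the arrays of 1 group was 0.983 to 0.984 (genes are not independent replicates). Slc29a1 was lower in ENT1-null at both ages, by -1.41 ± 0.09 at 2 months and -1.53 ± 0.09 at 6 months (log2 difference ± SE, limma adjusted p = 0.00724 and 0.000354). For the labelled tissue 11 annulus fibrosus genes were read, all of which lay above the filter. Their mean log2 level was 10.7 to 10.9 on the WT arrays at 2 months, 10.6 to 10.8 in ENT1-null at 2 months, 10.4 on both WT arrays at 6 months and 9.95 to 10.1 in ENT1-null at 6 months. These levels do not show that other tissue was absent. The mean of 8 skeletal muscle genes was 8.35 to 9.80 in WT and 9.29 to 10.8 in ENT1-null at 2 months. At 6 months it was 10.6 to 10.8 in WT and 7.69 to 8.98 in ENT1-null.

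Because the genes moved together from array to array, their promoters are shown, for Elane and Prtn3, which are adjacent genes on chromosome 10, for Fcnb, which had the largest difference between genotypes at 6 months, and for Ms4a3, the gene without the motif marked in the others. The sequences are RefSeq windows of build GRCm38.p6, from 250 bases before the start of transcription to 50 after it, written 5′ to 3′ on the strand of the gene. Capitals mark AGGAAGT, a sequence bound by PU.1 and other ETS factors, searched on both strands. Variants of these letters were not searched, so a window without them may hold another ETS site. PU.1, encoded by Spi1, is the transcription factor that commits cells to the myeloid lineage.
Elane, chr10:79886062-79886361, plus strand: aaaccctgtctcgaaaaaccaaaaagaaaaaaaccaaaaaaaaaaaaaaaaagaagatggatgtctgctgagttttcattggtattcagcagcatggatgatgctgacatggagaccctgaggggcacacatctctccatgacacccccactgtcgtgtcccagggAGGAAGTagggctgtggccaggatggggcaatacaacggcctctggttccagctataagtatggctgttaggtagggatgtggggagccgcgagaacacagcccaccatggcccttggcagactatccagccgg
Prtn3, chr10:79879417-79879716, plus strand: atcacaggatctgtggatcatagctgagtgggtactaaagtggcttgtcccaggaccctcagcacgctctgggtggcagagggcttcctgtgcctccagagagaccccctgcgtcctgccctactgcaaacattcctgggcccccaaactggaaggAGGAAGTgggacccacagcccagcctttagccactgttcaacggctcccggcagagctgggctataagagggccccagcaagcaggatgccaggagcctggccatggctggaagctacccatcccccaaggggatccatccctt
Fcnb, chr2:28084829-28085128, minus strand: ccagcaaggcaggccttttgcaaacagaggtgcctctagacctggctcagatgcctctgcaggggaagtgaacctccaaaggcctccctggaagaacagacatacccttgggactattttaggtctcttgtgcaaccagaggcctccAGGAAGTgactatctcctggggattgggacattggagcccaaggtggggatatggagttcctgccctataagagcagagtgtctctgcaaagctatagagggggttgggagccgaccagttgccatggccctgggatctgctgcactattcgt
Ms4a3, chr19:11640802-11641101, minus strand: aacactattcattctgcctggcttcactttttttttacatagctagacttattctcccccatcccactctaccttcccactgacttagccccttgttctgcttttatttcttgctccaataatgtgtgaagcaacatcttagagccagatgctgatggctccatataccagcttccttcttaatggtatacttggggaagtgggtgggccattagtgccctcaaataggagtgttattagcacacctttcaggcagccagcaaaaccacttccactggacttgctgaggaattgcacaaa

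AGGAAGT was present in the windows of 5 of the 6 genes, against 9.35% of all 32851 RefSeq windows of this length. Counted from the start, it began at base -84 in Elane, -94 in Prtn3, -103 in Fcnb, -206 in Ctsg and -223 in Mpo, in each on the strand of the gene. The window of Ms4a3 did not hold these letters. TTGCNNAA, a site of C/EBP factors, was found in Ms4a3 and Fcnb, 2 of the 6, against 10.8% of all windows. TGTGGT, the core bound by RUNX factors, was found in Ctsg alone, against 16.8%. AACNGNC, a site of MYB, was found in 4 of the 6, against 32.8%. No match of one motif overlapped a match of another. A match describes letters in the window and does not show a bound site, and the motif letters were chosen after the sequences had been seen.

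Myeloperoxidase is the most abundant protein of the primary granule. The log2 level of Mpo was 9.14 and 10.08 on the WT arrays at 2 months, 11.13 and 11.55 in ENT1-null at 2 months, 10.38 and 8.73 in WT at 6 months, and 12.20 and 12.08 in ENT1-null at 6 months (replicates 1 and 2 in that order, here and below). All 4 ENT1-null arrays lay above all 4 WT arrays, and the WT arrays were farther apart than the ENT1-null arrays at either age. The difference between genotypes was 1.73 ± 0.51 at 2 months, which did not pass (log2 difference ± SE, n = 2 and 2, limma adjusted p = 0.125). Mpo rose by 2.59 ± 0.51 at 6 months (limma adjusted p = 0.00582).

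Elastase, proteinase 3 and cathepsin G are made as inactive precursors and packed into the granule as active proteases. Elane had log2 levels of 9.76 and 10.82 (WT) against 11.95 and 12.22 (ENT1-null) at 2 months, and of 11.29 and 9.14 against 12.74 and 12.76 at 6 months. Its WT arrays at 6 months were 2.15 apart and its ENT1-null arrays at that age 0.02 apart. The Elane difference was 1.79 ± 0.62 at 2 months (limma adjusted p = 0.18). At 6 months Elane rose by 2.54 ± 0.62 (limma adjusted p = 0.0155), a call that ended without ENT1-null replicate 1 (2.55, adjusted p = 0.0653) or replicate 2 (2.53, adjusted p = 0.0649) of that age.

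Proteinase 3 is the closest relative of elastase in the granule. Log2 levels of Prtn3 were 7.70 and 8.60 (WT) against 9.42 and 9.92 (ENT1-null) at 2 months, and 8.76 and 6.87 against 10.67 and 10.65 at 6 months. The genotypes did not overlap at either age, and the lowest of its 8 values was that of WT replicate 2 at 6 months. The difference was 1.52 ± 0.56 at 2 months (limma adjusted p = 0.199), and Prtn3 rose by 2.84 ± 0.56 at 6 months (limma adjusted p = 0.006).

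Cathepsin G is also found in mast cells. Ctsg was at log2 levels of 8.02 and 9.23 (WT) against 10.15 and 10.68 (ENT1-null) at 2 months, and of 9.59 and 7.54 against 11.63 and 11.58 at 6 months. Again every ENT1-null array was above every WT array. The difference was 1.79 ± 0.63 at 2 months (limma adjusted p = 0.183), and Ctsg rose by 3.05 ± 0.63 at 6 months (limma adjusted p = 0.00745).

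Ms4a3 and Fcnb are genes of the same stage. Ms4a3 had log2 levels of 6.71 and 7.37 (WT) against 8.30 and 8.73 (ENT1-null) at 2 months, and of 7.79 and 6.58 against 9.85 and 9.61 at 6 months. Its WT arrays were the closest together of the 6 genes at either age. The difference was 1.48 ± 0.38 at 2 months (limma adjusted p = 0.101), and Ms4a3 rose by 2.55 ± 0.38 at 6 months (limma adjusted p = 0.0019). For Fcnb the log2 levels were 7.17 and 8.12 (WT) against 9.33 and 9.94 (ENT1-null) at 2 months, and 8.54 and 6.65 against 10.94 and 10.82 at 6 months. Its genotypes did not overlap at either age. Fcnb had the largest of the 6 differences at both ages, 1.99 ± 0.57 at 2 months (limma adjusted p = 0.122) and a rise of 3.29 ± 0.57 at 6 months (limma adjusted p = 0.00349).

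**Figure D1:**
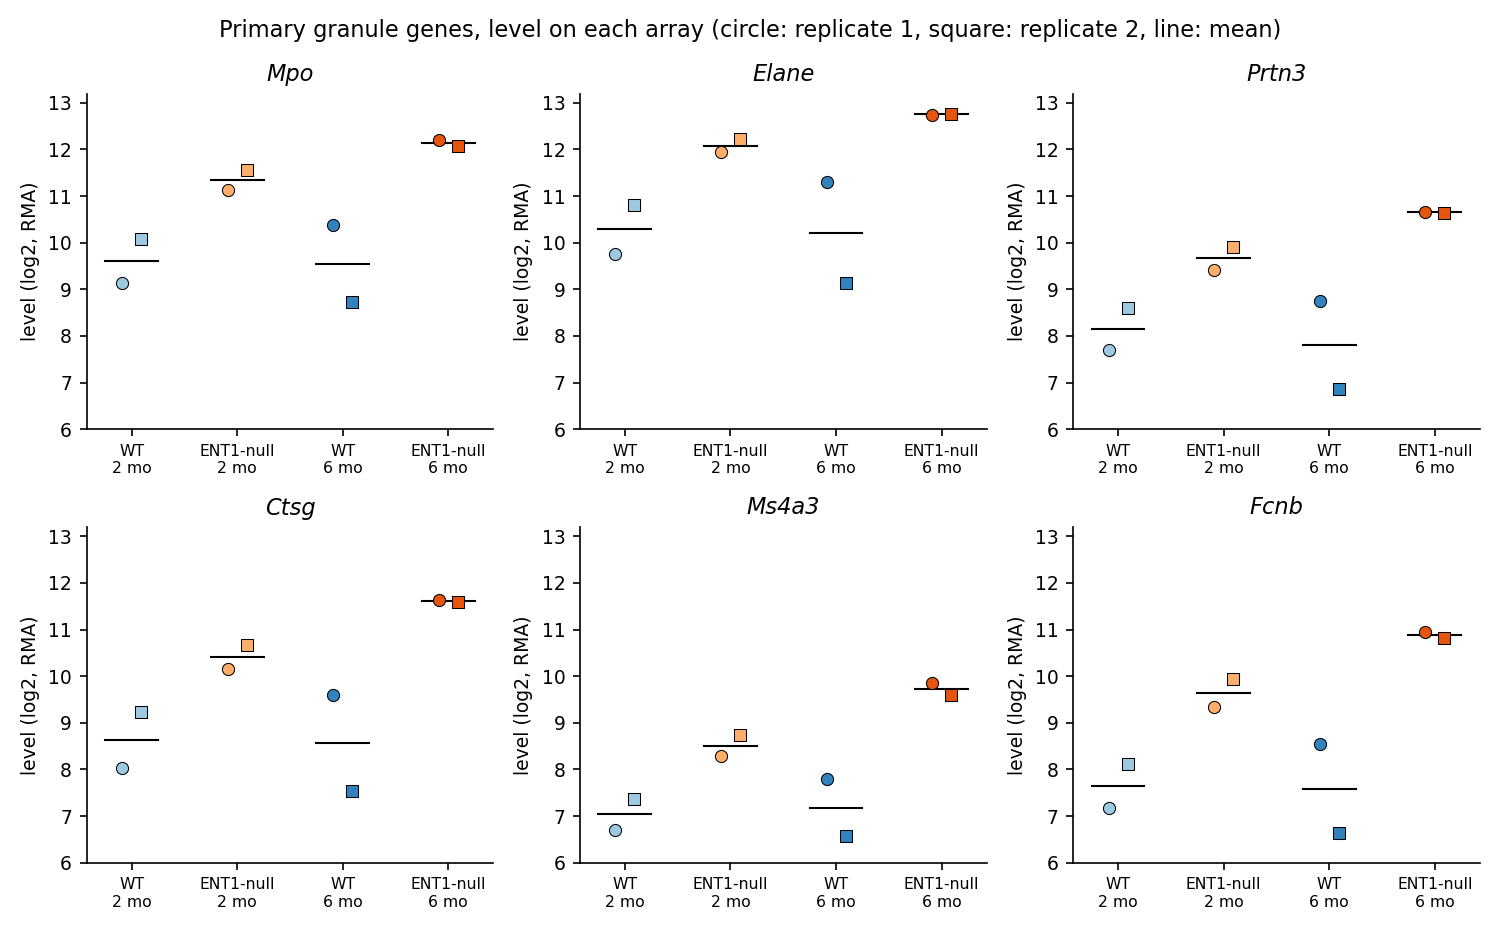
Log2 level (RMA, vertical axis) of each of the 6 genes on the 8 arrays, by genotype and age. Circles are replicate 1, squares replicate 2 and lines the mean of the 2 arrays of a group. In every panel the 4 ENT1-null arrays lie above the 4 WT arrays, and the WT arrays at 6 months are the farthest apart.

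In the older mice, compared by genotype at 6 months, 6 of the 6 genes rose (median 2.72, range 2.54 to 3.29, or 5.80-fold to 9.76-fold on the scale of the deposited values). Over all 15526 genes tested, 38.8% passed in either direction and 21.2% were higher (median -0.03). The genotypes did not overlap in 6 of 6, with ENT1-null higher, against 35.6% of all genes. The interval of the difference (95%) lay between 1.08 and 3.99 for Elane, the least certain of the 6 calls, and between 1.65 and 3.44 for Ms4a3, the most certain. By size of difference Fcnb was at rank 7, Ctsg at rank 15 and Prtn3 at rank 21 of the 15526 genes, and the other 3 were at ranks 49 to 64. The sizes depended on which WT array was used. Without WT replicate 2 of that age Elane gave 1.46 and Ctsg 2.02, both still called, and the median of the 6 was 1.92, while without WT replicate 1 the median was 3.70.

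At 2 months none of the 6 genes passed (median 1.76, range 1.48 to 1.99, limma adjusted p = 0.101 to 0.199), although each had an unadjusted p of 0.0279 or less. At this age 3008 of the 15526 genes tested had an unadjusted p below 0.05 (limma). Of all genes tested, 0.683% passed at this age and 0.296% were higher. ENT1-null arrays lay above WT arrays without overlap in 6 of the 6, against 19% of all genes. The median was 1.22 without WT replicate 1 and 2.26 without WT replicate 2. Leaving out either WT array of 6 months, which narrows the shared estimate of spread, brought 4 of the 6 past the test at 2 months (Elane, Fcnb, Mpo and Ms4a3, limma adjusted p = 0.0382 to 0.0447), and 1.93% of all genes, 1.38% being higher.

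The difference between ages in the effect of genotype was tested directly and was not called for any of the 6, of which 0 had an unadjusted p below 0.05 (limma). It ranged from 0.74 ± 0.88 for Elane (95% interval -1.31 to 2.80, limma adjusted p = 0.642) to 1.32 ± 0.79 for Prtn3 (95% interval -0.52 to 3.17, limma adjusted p = 0.331). In this comparison 4.45% of all genes passed, 2.56% being higher, and 4186 of the 15526 had an unadjusted p below 0.05 (limma). Without WT replicate 2 of 6 months the Elane value turned to -0.33, and the median of the 6 went from 1.16 to 0.29. Over both ages, with age as a term, all 6 rose (median 2.17, range 2.01 to 2.64, 4 against 4 arrays, limma adjusted p = 0.00822 to 0.0144). Over both ages 24.5% of all genes passed, 12.8% being higher, and all 4 ENT1-null arrays exceeded all 4 WT arrays in 12.6% of genes and in 6 of the 6. Elane (2.09, adjusted p = 0.0503) and Prtn3 (2.05, adjusted p = 0.0506) lost that call without ENT1-null replicate 1 of 6 months.

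**Figure D2:**
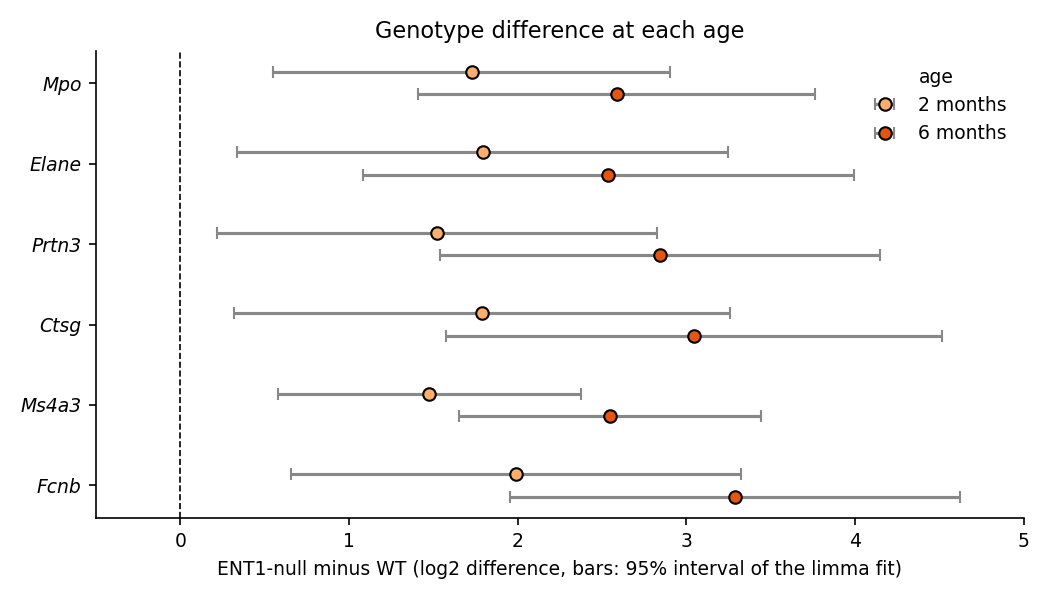
Difference between ENT1-null and WT (log2, horizontal axis) for each gene at 2 and 6 months. Points are the limma estimates and bars their 95% intervals, from 2 against 2 arrays. At 6 months the points run from 2.54 to 3.29 and at 2 months from 1.48 to 1.99, and the intervals of the 2 ages overlap in each gene.

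Between 2 and 6 months the WT level of the 6 genes gave a median difference of -0.06 (range -0.33 to 0.15), with overlapping arrays in each of them. No gene passed in this comparison (limma, 0% of those tested, with 2067 at an unadjusted p below 0.05). The direction was not stable. Without WT replicate 2 of 6 months the median was 0.83, and without WT replicate 1 of 6 months it was -1.04. In ENT1-null the 6 month arrays lay above the 2 month arrays in 6 of 6 genes, against 30% of all genes, with a median of 1.09 (range 0.67 for Elane to 1.24 for Fcnb). None passed (limma adjusted p = 0.0602 to 0.497), against 22.2% of all genes, 11.9% being higher. At an unadjusted p below 0.05 it was 1 of the 6, Ms4a3, and 5457 of the 15526 genes. With only the 4 ENT1-null arrays in the fit all 6 were called (limma adjusted p = 0.00556 to 0.0164), as were 18.1% of all genes, 10.6% being higher. The standard errors of the 6 in that fit were 0.12 to 0.20 in place of 0.38 to 0.63. By group mean the order was ENT1-null at 6 months, ENT1-null at 2 months, WT at 2 months and WT at 6 months for 5 of the 6, and in Ms4a3 the 2 WT groups changed places. The WT groups, neighbours in that order, did not differ beyond their spread.

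The spread among WT arrays was shared by the 6 genes. All 6 had the same order of the 4 WT arrays, namely replicate 1 of 6 months, replicate 2 of 2 months, replicate 1 of 2 months and replicate 2 of 6 months from high to low. The gap between the 2 WT arrays was 0.66 to 1.20 at 2 months and 1.21 to 2.15 at 6 months, against a median gap of 0.10 over all genes tested at either age. Between the ENT1-null arrays the gap was 0.27 to 0.61 at 2 months and 0.02 to 0.24 at 6 months, against medians of 0.12 and 0.13 over all genes. Over the 8 arrays the genes ranged by 3.27 to 4.29 log2 units. In a bulk sample, fewer precursor cells and less RNA per cell cannot be told apart.

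The other stages of granulocyte formation were read from fixed lists. Each gene was set against its own mean of 8 arrays, and the offsets were averaged over a list. The mean offset of the 6 genes was -1.57 and -0.62 in WT at 2 months, 0.39 and 0.85 in ENT1-null at 2 months, -0.26 and -2.07 in WT at 6 months, and 1.69 and 1.60 in ENT1-null at 6 months. For 10 genes of the myelocyte and its secondary granules, among them Ltf (lactoferrin) and Camp (cathelicidin), the offsets were -1.53 and -0.34, 0.33 and 0.62, -0.36 and -1.47, and 1.42 and 1.33 in the same order. The primary granule genes exceeded these by 0.07 to 0.27 on the ENT1-null arrays, and in WT they lay between 0.60 below and 0.09 above them (the value of -0.60 is that of WT replicate 2 at 6 months). Because every gene is centred on its 8 arrays, an excess of one list on some arrays brings a deficit on others. These offsets are a description with no test.

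At 6 months, where 21.2% of all genes were higher, so were all 10 secondary granule genes (median 2.53, range 1.17 to 2.87). Itgb2l gave 2.42 ± 0.27, Cd177 2.68 ± 0.35 and Chil3 2.70 ± 0.39 (limma adjusted p = 0.000633, 0.00106 and 0.00154). That count fell to 5 without ENT1-null replicate 1 and to 6 without ENT1-null replicate 2 or WT replicate 2 of that age. All 9 genes of the mature neutrophil were higher too (median 2.26), among them Il1b at 2.14 ± 0.21 and Cxcr2, a chemokine receptor, at 2.69 ± 0.37 (limma adjusted p = 0.000474 and 0.00129), and 6 without any of those 3 arrays in turn. None of either list passed in limma at 2 months (medians 1.39 and 1.32), where 10 and 8 had an unadjusted p below 0.05, against 3008 of all 15526 genes. Without WT replicate 2 of 2 months, calls at that age were added in both lists. In that fit Chil3 gave 2.22 and Ly6g 3.26, against 1.59 and 2.23 in the main fit.

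Of 7 genes of earlier progenitors, 2 were higher at 6 months, as were 21.2% of all genes, and 5 did not pass (median 0.05). Kit, the stem cell factor receptor, rose from 7.44 and 6.96 in WT to 8.80 and 8.60 in ENT1-null (log2 levels, limma adjusted p = 0.0013). Flt3, another growth factor receptor, rose by 0.63 ± 0.10 (limma adjusted p = 0.00194). Cd34 gave -0.33 ± 0.12 (limma adjusted p = 0.0615), and Meis1, Hoxa9, Erg and Sox4 lay between -0.15 and 0.21. None of the 7 passed in limma at 2 months (median 0.07, 2 at an unadjusted p below 0.05).

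**Figure D3:**
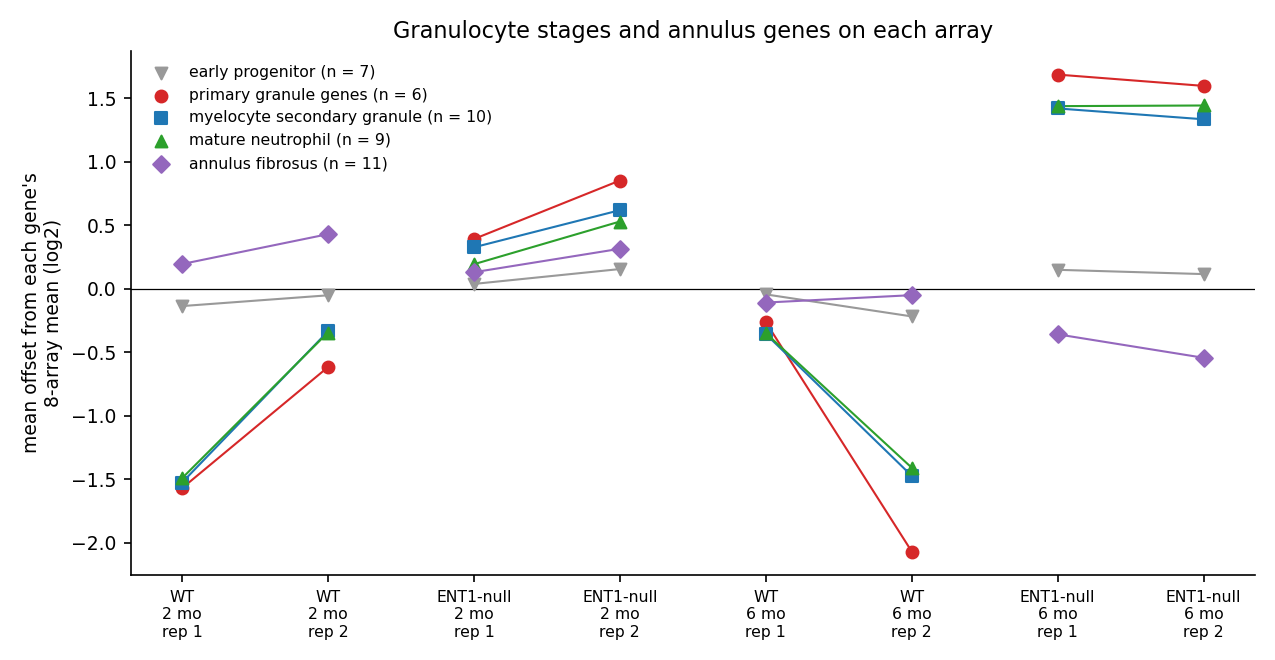
Mean offset of 5 gene lists from each gene's mean of 8 arrays (log2, vertical axis) on each array, with the arrays of a group joined by a line. Primary granule genes range from -2.07 on WT replicate 2 to 1.69 on ENT1-null replicate 1, both at 6 months. The secondary granule and mature neutrophil lists have a like course. The mean of the early progenitor genes stays between -0.22 and 0.15, although Kit and Flt3 of that list were higher in ENT1-null at 6 months.

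Transcription factors of the granulocyte lineage were read as a list of 10, of which 6 were higher at 6 months and 4 did not pass (median 0.72). Of all genes tested, 21.2% were higher at that age. Spi1 (PU.1) rose by 1.74 ± 0.18, Gfi1, a repressor needed by promyelocytes, by 0.96 ± 0.13, and Irf8, which favours monocytes, by 1.87 ± 0.26 (limma adjusted p = 0.000503, 0.00109 and 0.00135). Myb and Cebpe were included as the factors that act before and after the promyelocyte. Cebpe had log2 levels of 7.46 and 8.28 (WT) against 8.69 and 9.50 (ENT1-null) at 2 months, and of 8.22 and 7.11 against 10.35 and 10.20 at 6 months. Its ENT1-null arrays all lay above its WT arrays, and the rise at 6 months was 2.61 ± 0.42 (limma adjusted p = 0.00245). Myb rose by 2.41 ± 0.41 and Runx1 by 0.47 ± 0.09 (limma adjusted p = 0.00321 and 0.00539). Cebpa, the factor that starts the granulocyte programme, gave 0.49 ± 0.25 (limma adjusted p = 0.168). With only the 6 month arrays in the fit Cebpa was called (0.49, limma adjusted p = 0.027). Cbfb gave 0.06, Cebpb -0.02 and Cebpd 0.02. None of the 10 passed in limma at 2 months (median 0.43, 6 at an unadjusted p below 0.05).

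At 6 months 21.2% of all genes tested were higher. Genes for the filling and activation of the granule rose in part. Of 10, 7 were higher at 6 months and 3 did not pass (median 0.46), and the count was 3 without WT replicate 2, 4 without WT replicate 1 or ENT1-null replicate 2, and 5 without ENT1-null replicate 1 of that age. Prss57, a further serine protease of the primary granule, had log2 levels of 6.90 and 6.98 (WT) against 7.19 and 7.56 (ENT1-null) at 2 months, and of 6.85 and 6.51 against 8.44 and 8.07 at 6 months. It rose by 1.57 ± 0.18 at 6 months, with no overlap of genotypes at either age (limma adjusted p = 0.000656). Ctsc, the peptidase that activates elastase, proteinase 3 and cathepsin G, rose by 1.84 ± 0.26, and Gusb, a lysosomal hydrolase, by 0.55 ± 0.11 (limma adjusted p = 0.00147 and 0.00607). Lyz2, lysozyme, rose by 1.54 ± 0.40, Lyz1 by 0.85 ± 0.22, Srgn, the proteoglycan that packs the proteases, by 0.38 ± 0.09, and Ap3b1, a sorting adaptor, by 0.35 ± 0.08. The calls of these 4 are those that ended without single arrays. That of Lyz2 also ended with trend and robust eBayes (limma adjusted p = 0.0558). Lyz1 and Lyz2 are near-identical copies, so that their separate values are uncertain. The chaperones Calr (0.09) and Canx (0.08) and the granule membrane protein Cd63 (0.26) did not pass. None of the 10 passed in limma at 2 months (median 0.26, 6 at an unadjusted p below 0.05).

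Inhibitors of the granule proteases went in both directions. At 6 months 2 of 8 were higher, 5 lower and 1 did not pass (median -0.43). Of all 15526 genes tested, 3295 were higher and 2727 lower at that age. Serpinb1a, the inhibitor of elastase, proteinase 3 and cathepsin G inside the neutrophil, rose by 2.28 ± 0.21, and its log2 level was 6.71 and 6.53 in WT against 8.86 and 8.94 in ENT1-null (limma adjusted p = 0.000427). Slpi, a secreted elastase inhibitor, rose by 1.90 ± 0.21 (limma adjusted p = 0.000652). Serpina1d, of the alpha-1-antitrypsin family, fell by 1.36 ± 0.12 (limma adjusted p = 0.000427), with levels of 11.78 and 11.89 in WT against 10.56 and 10.38 in ENT1-null. Both inhibitors that rose had non-overlapping genotypes, as did Serpina1d. Serpina1b (-0.50), Serpina1a (-0.66), Serpina1e (-1.72) and Serpinb6a, an inhibitor of cathepsin G (-0.37), were lower as well, and Serpina3n (-0.35) did not pass. The 4 alpha-1-antitrypsin genes are close copies whose probes may read each other, and only 2 of the inhibitors were called lower without WT replicate 1 or ENT1-null replicate 2 of 6 months and 3 without WT replicate 2. None of the 8 passed in limma at 2 months (median -0.23, 4 at an unadjusted p below 0.05).

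Markers of other marrow and blood cells were read on the same arrays, with mean log2 levels given over the tested genes of each list. The share of all genes tested that were higher at 6 months was 21.2%. At 6 months 8 of 9 monocyte and macrophage genes were higher (median 1.57, mean log2 level 8.28 to 8.55 in WT and 9.71 to 9.79 in ENT1-null). All 6 tested eosinophil genes were higher (median 2.90, 6.57 to 7.09 and 9.71 to 9.74), as were all 6 erythroid genes (median 2.09, 8.02 to 8.79 and 10.3 to 10.6). Of 7 B cell genes 5 were higher (median 1.00, 7.21 to 7.63 and 8.48 to 8.49), 2 of 4 T and NK cell genes (median 0.75, 6.42 to 6.66 and 7.22 to 7.42) and 3 of 4 megakaryocyte genes (median 1.61, 8.71 to 9.37 and 10.7 to 10.9). All 9 genes of mitosis were higher (median 2.46, 7.55 to 8.51 and 10.2 to 10.5). The B cell count was 3 without ENT1-null replicate 1 and the megakaryocyte count 2 without WT replicate 2 of 6 months. The eosinophil gene Ccr3 lay below the filter on all 4 WT arrays (at most 5.65) and was tested only through its ENT1-null level, so that its calls follow in part from the filter. The part of these cells in the values of the 6 genes was not tested.

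Over all 15526 genes tested, 3295 were higher and 2727 lower at 6 months. At that age the annulus list of 11 had 7 members lower, 2 higher and 2 that did not pass (median -0.82), and 7 of 8 skeletal muscle genes were lower (median -2.34). The muscle count was 0 without WT replicate 1 or ENT1-null replicate 1 and 1 without WT replicate 2. Of 6 bone genes 4 were higher and 1 lower (median 0.95), with 1 higher without WT replicate 1 or ENT1-null replicate 1, and 2 higher without ENT1-null replicate 2 or WT replicate 2. At 2 months the number called was 2 of 6 eosinophil genes, 1 of 6 erythroid, 1 of 9 mitosis and 1 of 11 annulus genes (lower), against 0.683% of all genes. These were Epx, Ccr3, Klf1, Ube2c and Cilp2. All 5 of these calls ended with the replicate block, with only the groups compared, without any one of the 4 ENT1-null arrays and without WT replicate 1 of 2 months. None was called by limma among the monocyte (7 of 9 at an unadjusted p below 0.05), B cell (2 of 7), T and NK cell (0 of 4), basophil and mast cell (5 of 5), megakaryocyte (4 of 4), bone (2 of 6) and muscle genes (0 of 8). Other settings added calls at 2 months. With trend and robust eBayes, Hdc, Tfrc and Cenpf were called (limma adjusted p = 0.0443 to 0.046). Without either WT array of 6 months, calls were added among mitosis and erythroid genes. Monocyte and megakaryocyte genes were added without WT replicate 2 of 2 months. In that fit Cd68 gave 1.56 and Pf4 2.24, against 1.10 and 1.57 in the main fit. The differences of all 8 muscle genes lay above 0 at 2 months (median 1.02), opposite in direction to 6 months. In mean offset of the muscle list, replicate 2 exceeded replicate 1 by 1.45 (WT) and 1.48 (ENT1-null) at 2 months. At 6 months replicate 1 minus replicate 2 gave 0.22 (WT) and -1.29 (ENT1-null).

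Mast cells and basophils were read beside Ctsg. All 5 tested genes of that list were higher at 6 months (median 2.14), against 21.2% of all genes. Among them were Hdc at 2.14 ± 0.16, Mcpt8, a basophil protease, at 2.44 ± 0.20, and Cpa3 at 2.87 ± 0.32 (limma adjusted p = 0.000383, 0.000383 and 0.000626). Mcpt8 lay below the filter on all 4 WT arrays (at most 6.18) and was tested only through its ENT1-null level. The other 5 genes had means below the filter and were not tested. Among them Ms4a2, a chain of the IgE receptor, was at 5.82 and 5.76 in WT and at 6.81 and 6.52 in ENT1-null at 6 months, and Fcer1a, another chain, at 4.30 and 4.10 against 5.51 and 5.12. The mast cell proteases Cma1 and Mcpt4 had log2 levels of at most 5.35 and 4.11 on any array, and Tpsb2 at most 5.46, against a filter at 6.21. The mean level over all 10 genes of the list was 5.61 to 5.77 in WT and 6.78 to 6.84 in ENT1-null at 6 months.

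Genes were ranked by how like their course over the 8 arrays was to the mean of the 6. Pglyrp1, a peptidoglycan-binding protein of neutrophil granules, had the highest Pearson r, 0.996, followed by Camp (0.996), Ly6c2 (0.995), Rac2, a GTPase of the neutrophil oxidase (0.995), and S100a9 (0.994). H2ac10 (0.994), Ifitm6 (0.993), Atp8b4 (0.992), Igsf6 (0.992) and Olr1 (0.992) completed the first 10. Pairs of the 6 genes had r of 0.963 to 0.997, and the median rank of one for another was 7.5 among 15525 genes. The gene nearest to Mpo was Fcnb (0.997) and to Prtn3 Ctsg (0.996). Nearest to Elane was Camp (0.996), and to Ctsg Ly6c2 (0.997). Ms4a3 stood farthest from the others. Its nearest gene was Abca13 (0.998), and Elane held rank 513 in its list (r = 0.963). These r share the 4 groups and the arrays and are given as a description.

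Chromosomal neighbours were compared to see whether the rise was shared along the chromosome. The nearest 2 genes read on each side of the 6 came to 20 others, of which 14 lay above the filter. At 6 months 6 of the 14 were higher, 2 lower and 6 did not pass (median 0.17). Over all genes tested 38.8% passed at that age, 21.2% being higher. Of the 6 neighbours that were higher, Mcpt8 and Ms4a6d lay below the filter on all 4 WT arrays and were tested only through their ENT1-null level. Elane and Prtn3 lie between Plppr3 (0.58 ± 0.10) and Med16 (0.46 ± 0.11), which were higher with R3hdm4 (0.78 ± 0.14) and Ptbp1 (0.48 ± 0.09), the last an RNA splicing factor (limma adjusted p = 0.00393 to 0.0154), and Med16 lost its call without any one of the 4 arrays of that age. Next to Mpo, Lpo, the peroxidase of saliva and milk, gave -0.02 ± 0.10 (limma adjusted p = 0.892), and Rnf43, Tspoap1 and Mks1 did not pass either. Mcpt8 lies next to Ctsg and rose as given above, while Mcpt4, Gzmd and Gzmg on that stretch were below the filter. Ms4a6d, near Ms4a3, rose by 1.08 ± 0.21 (limma adjusted p = 0.00594). Near Fcnb, Rxra fell by 0.71 ± 0.11 (limma adjusted p = 0.00196) and Olfm1 by 0.50 ± 0.15 (limma adjusted p = 0.0363), and Col5a1 (-0.03) and Ppp1r26 (-0.24) did not pass. Olfm1 lost its call without any one array other than ENT1-null replicate 1 of 6 months, and gave -0.24 without ENT1-null replicate 2 of 6 months.

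**Figure D4:**
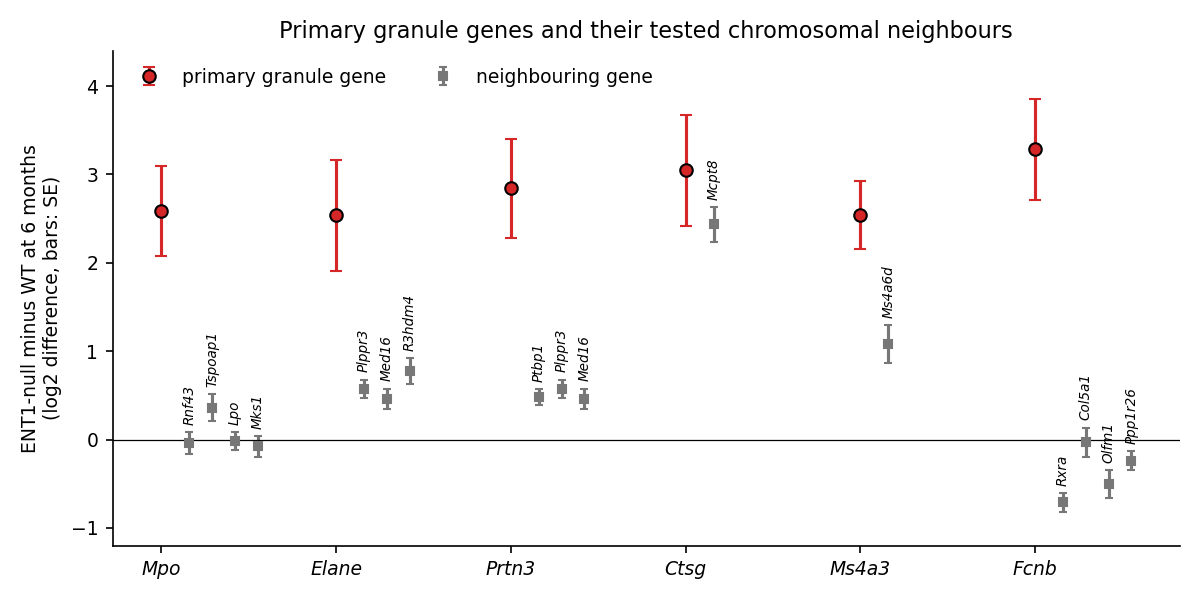
Difference between ENT1-null and WT at 6 months (log2, vertical axis, bars are SE, 2 against 2 arrays) for the 6 genes in red and, to the right of each, its neighbours above the filter in grey. Apart from Mcpt8 beside Ctsg (2.44) and Ms4a6d near Ms4a3 (1.08), the neighbours lie between -0.71 and 0.78.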

How the data were processed

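Per the submitters' processing notes the authors made the values by RMA (background correction, quantile normalization between arrays, summary of each probe set), and they were deposited on the log2 scale for 41345 probe sets and 8 arrays. For RMA's version and the array's genome build, the entry is: not given in the sources used here. Per the labels' protocols, 200 ng of Trizol-extracted RNA was labelled with biotin.

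Of the probe sets 23521 had 1 gene symbol, 1814 several and 16010 none. A gene was read from its probe set of highest mean, and genes with a mean under the 30th percentile (6.21) were left out. The fits used limma 3.58.1 in R 4.3.3 with 4 group means, or genotype and age as terms, over all 8 arrays. P-values were adjusted by Benjamini-Hochberg over 15526 genes, and below 0.05 was called. Fits were tested on simulated data. The number of arrays limits the precision.

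Named were the 6 genes, Slc29a1, from each list some members of largest statistic at 6 months and any on which a result turns, the 10 genes of highest likeness, and the nearest 2 genes read on each side. The members and lists were chosen with earlier results of these data known. Deviations of same-numbered arrays from their group means had r of -0.39 to 0.41 between groups. Between WT and ENT1-null r was 0.41 at 2 months and -0.15 at 6 months. No pairing is stated in the labels and the main fits used none, so a pairing at 2 months was not settled. Alternatives were other filters, scalings, probe set rules, eBayes settings, thresholds and arrays, and a replicate block.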

Additional observations from a re-analysis of the deposited data

How the results depend on the processing

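The 6 rises at 6 months were all called under each of the 10 alternatives of filter, scaling, probe set rule, replicate block, eBayes setting, arrays fitted and threshold, with a median of 2.66 to 2.75, and 5 to 6 were called when 1 array was left out (median 1.92 to 3.70). At 2 months 0 were called under those alternatives (median 1.75 to 1.77) and 0 to 4 with an array left out (median 1.22 to 2.26). Across ages 6 were called (2.15 to 2.20), and 4 to 6 with an array left out (1.71 to 2.47). For the difference between ages the count stayed at 0, with medians of 1.11 to 1.18, and of 0.29 to 2.03 with an array left out. By age in ENT1-null 6 were called with only the arrays of the groups compared, 1 (Ms4a3) at adjusted p below 0.1, and 0 to 2 with an array left out (0.84 to 1.34). By age in WT the median was -1.04 to 0.83 with an array left out. There, 5 genes turned without WT replicate 2 of 6 months (Ctsg 0.96, Elane 1.00, Fcnb 0.89, Mpo 0.76, Prtn3 0.61) and without WT replicate 2 of 2 months (0.54, 0.46, 0.42, 0.41 and 0.12). Ms4a3 turned without WT replicate 1 of 6 months (-0.46) or of 2 months (-0.18). Over all arrays left out, these age differences in WT ran from -1.08 for Ctsg, -1.15 for Elane, -0.9999 for Fcnb, -0.88 for Mpo and -1.28 for Prtn3 up to the values above, and for Ms4a3 up to 0.75. The difference between ages of Elane ran from -0.33, without WT replicate 2 of 6 months, to 1.82. The offset of the 6 genes from the secondary granule list was -0.58 to 0.0085 in WT at 6 months with an array left out. The replicate block changed no call among the 6 genes (6 at 6 months), and the cause of the changes was not tested. In the lists, trend and robust eBayes ended calls at 6 months. These were Lyz2, Serpina1e, Ngp, Lcn2, S100a8, Retnlg, Ctsk, Acp5, Acta1, Ckm, Myh1, Tnnt3 and Myl1 (limma adjusted p = 0.0531 to 0.103). It added Cd34 (-0.33, limma adjusted p = 0.0468). Ngp also lost its call with no filter, a second quantile normalization or the replicate block.

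Among all genes, 106 passed at 2 months, 29 with no filter, 161 with centred arrays (96 higher and 65 lower, against 46 and 60), 35 with all probe sets, 1 with the replicate block, 259 with trend and robust, 0 with only the groups compared, 823 at adjusted p below 0.1, and 0 to 358 with an array left out. In the difference between ages 691 passed (398 higher and 293 lower, against 299 and 407 after a second quantile normalization), 11 with no filter, 353 with the block, 1102 with trend and robust, 2383 at adjusted p below 0.1, and 0 to 319 with an array left out. At 6 months it was 3670 without WT replicate 2, against 6022. By age in ENT1-null 1519 to 3160 passed with an array left out, against 3442, and across ages 1390 to 4343, against 3809.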
